A study of Homo sapiens with 6 samples.

Results

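ARL2BP, its GTPase partners ARL2 and ARL3, and PLLP, the gene that overlaps ARL2BP on the other strand, were followed in HCT116 cells, an established epithelial line from a human colorectal carcinoma. These 4 genes, of 60612 listed for every library, were chosen by name. ARL2BP was selected on its own strong but uneven rise in these libraries, and the other 3 genes were added as its partners and its neighbour. Poly(A) RNA was sequenced from cells given a control lentivirus (LV-NC, 3 libraries) or a lentivirus for SNORA28 (LV-SNORA28, 3 libraries). SNORA28 is an H/ACA box small nucleolar RNA. The study asked which genes SNORA28 overexpression changes in these cells. Both groups carried a lentiviral vector. The methods of the study describe the sequenced cells as collected a few days after infection. They describe puromycin selection for cells stably overexpressing SNORA28, but do not name it for the sequenced cells. No cloning step is described. The sources do not say whether the 3 libraries of a group came from separate infections, so the p-values measure the spread between these libraries, which may be technical.

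ARL2BP, also known as BART, is a small soluble protein that binds ARL2 and ARL3 in their GTP-bound form. ARL2 works with the tubulin folding cofactor TBCD and has a pool in mitochondria, where ARL2BP binds the ADP/ATP carrier SLC25A4. ARL3 releases lipid-modified proteins from their carriers UNC119, UNC119B and PDE6D, above all for delivery to cilia, and loss of ARL2BP or of the ARL3 regulator RP2 causes retinal degeneration. ARL2BP has also been described as a nuclear partner of STAT3. PLLP, plasmolipin, is an unrelated membrane protein of the MARVEL family, known from myelin and from apical membranes of epithelia.

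A large part of the ARL2BP exons is shared with PLLP on the opposite strand, which bears on every value of this pair. In GENCODE release 44 on hg38, the build named by the submitters, ARL2BP (ENSG00000102931) lies on the plus strand of chromosome 16 from 57245259 to 57253635. PLLP (ENSG00000102934) lies on the minus strand from 57248547 to 57284672, and the spans share 5089 bases. The overlap rests on 2 of the 5 annotated PLLP transcripts. The last exon of PLLP-205, 7025 bases long, holds exons 4, 5 and 6 of the main ARL2BP transcript whole, as the exon map of the loci shows. PLLP-203, a transcript without a defined coding sequence, has all of its exon bases within ARL2BP exons. Together they cover 1733 of the 1969 exon bases of ARL2BP-201 (88.0%) and 362 of its 489 coding bases (74.0%). The shared bases are 19.9% of the 8705 exon bases of all PLLP transcripts together. The main PLLP transcript, PLLP-201, ends 2462 bases beyond ARL2BP and shares no exon base with it. Libraries were made by a dUTP method that keeps the strand, but whether strand was used in counting is not given in the sources used here. Fragments from the shared exons can therefore not be assigned to ARL2BP or PLLP with certainty.

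**Figure D1:**
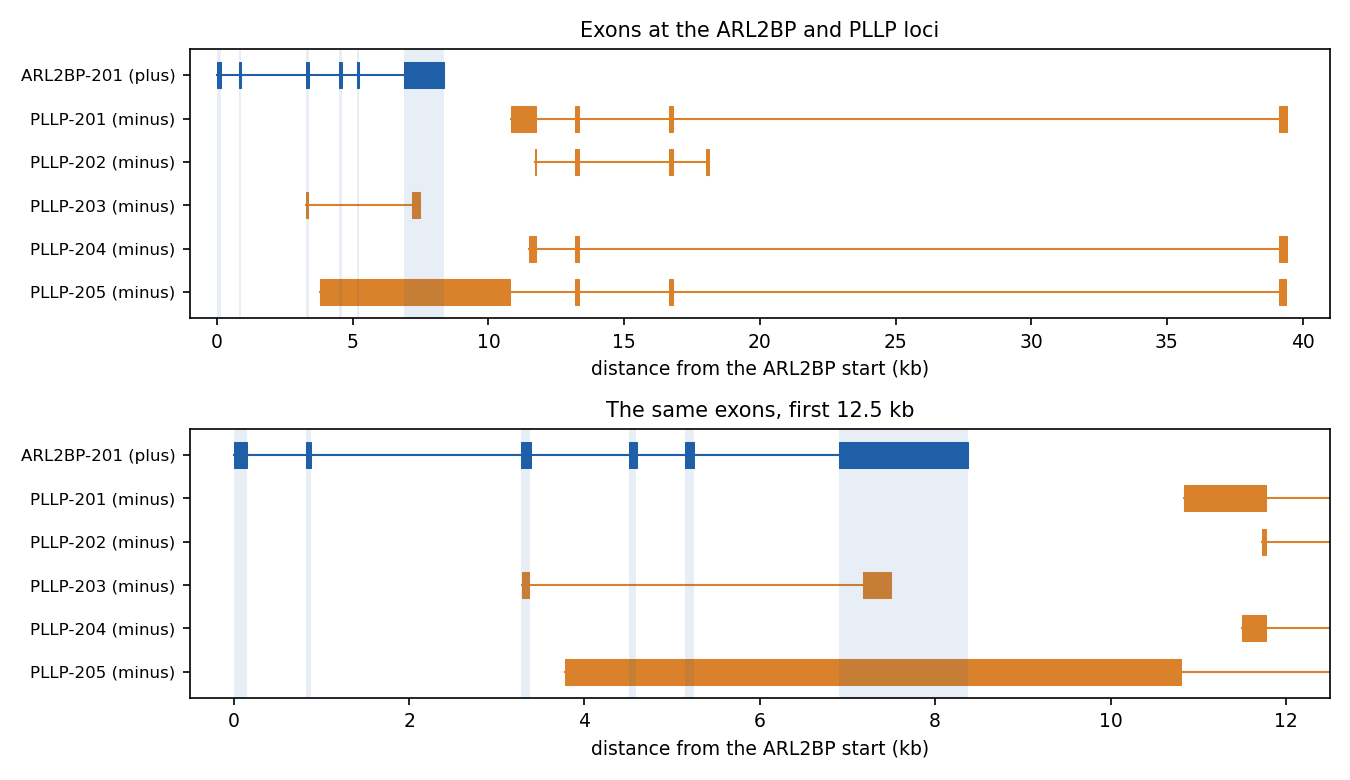
Exons (boxes) of ARL2BP-201 and of the 5 PLLP transcripts, by distance in kb from the ARL2BP start, for the whole region and for its first part. Shading marks ARL2BP exons, and the long last exon of PLLP-205 covers ARL2BP exons 4 to 6 while PLLP-201, PLLP-202 and PLLP-204 share none.

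A pair of ARL2BP coding exons is shown because each meets an antisense gene in another way. Exon 2 (chr16:57246080-57246141, hg38, plus strand) lies whole within the antisense non-coding gene ENSG00000276663. In exon 3 (chr16:57248537-57248643, plus strand) 80 of 107 bases lie opposite exon 2 of PLLP-203. Capitals mark the bases opposite the antisense exon, 5′ to 3′ on the ARL2BP strand.
ARL2BP exon 2: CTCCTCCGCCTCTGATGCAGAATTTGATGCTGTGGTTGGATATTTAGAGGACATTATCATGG
ARL2BP exon 3: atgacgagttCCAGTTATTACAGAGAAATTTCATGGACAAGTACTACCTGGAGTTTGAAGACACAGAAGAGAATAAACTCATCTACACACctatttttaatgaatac

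The values are FPKM, fragments scaled by transcript length and by the number of mapped fragments. No read depth was given with them, so no counting interval could be attached to a value. Between 24231 and 25771 genes per library were above 0. SNORA28 itself, which checks the labels, was listed at 0 to 0.92 FPKM in LV-NC and at 13.66 to 15.2 FPKM in LV-SNORA28. Its host gene EIF5 ranged from 8.56 to 16.88 FPKM in LV-NC and from 13.8 to 17.86 FPKM in LV-SNORA28. Mitochondrially encoded genes made up 42.7% to 47.7% of summed FPKM for LV-NC and 35.9% to 38.3% for LV-SNORA28, the highest share being in LV-NC replicate 2. The epithelial markers EPCAM, KRT8, KRT18 and CDH1 were at 9.65 FPKM or more in every library, whereas VIL1 was at 0.04 or less. The leukocyte marker PTPRC and the endothelial marker PECAM1 were at 0.08 FPKM or less, and COL1A1, a fibroblast collagen, was at 3.16 to 4.46 FPKM. For bulk RNA, fewer expressing cells and less RNA per cell cannot be told apart.

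ARL2BP measured 3.64, 1.89 and 3.86 FPKM in replicates 1, 2 and 3 of LV-NC. In LV-SNORA28 replicates 1, 2 and 3 it was listed at 6.45, 14.34 and 15.76 FPKM. The groups did not overlap. In FPKM, LV-SNORA28 replicate 1 stood nearer to the control libraries than to the other LV-SNORA28 libraries. On the log2 scale it lay more nearly between them. The group means were 3.13 ± 1.08 FPKM (SD, n = 3) and 12.2 ± 5.02 FPKM (SD, n = 3), a ratio of 3.89. The difference of log2(FPKM + 1) means was 1.63. Adding 1 makes the log2 fold change of a weakly expressed gene smaller than its FPKM ratio implies. Because ARL2BP was chosen for this uneven rise, it is given as a description without a test. It was 1.99 without LV-SNORA28 replicate 1 and 1.39 without LV-NC replicate 2, the library in which ARL2BP was lowest and the mitochondrial share highest. With values scaled to the sum over nuclear genes, which leaves the mitochondrial share out, the ARL2BP difference was 1.60. ARL2BP lay above 19.9% to 40.9% of the genes tested in LV-NC and above 55.9% to 80.9% of them in LV-SNORA28.

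**Figure D2:**
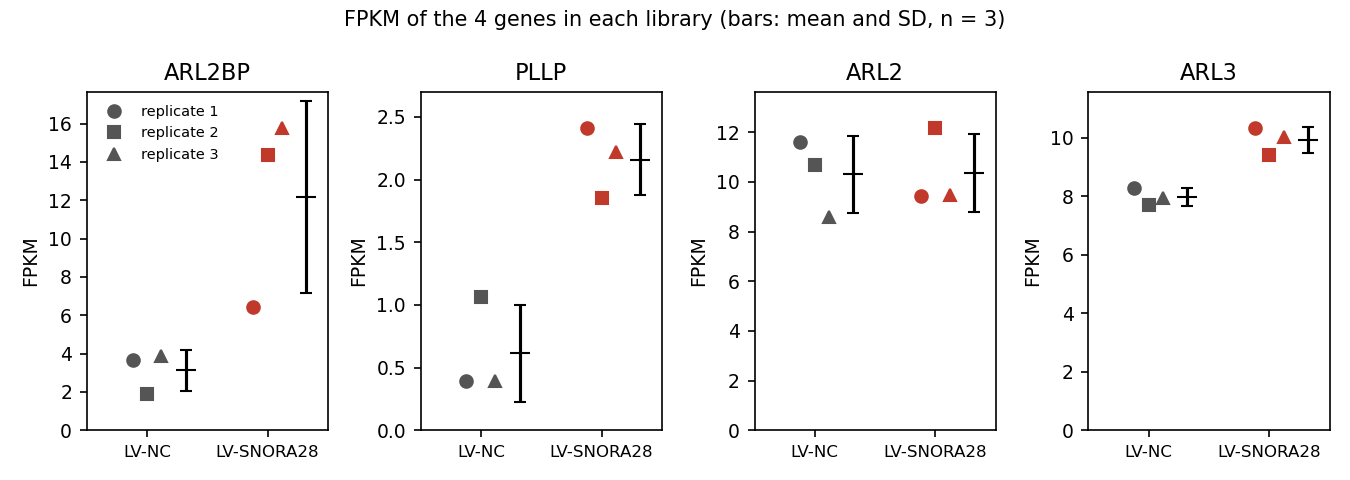
FPKM (y axes, each from 0) of ARL2BP, PLLP, ARL2 and ARL3 in the 3 LV-NC and 3 LV-SNORA28 libraries, with the marker shape giving the replicate and bars the mean and SD. ARL2BP spreads from 6.45 to 15.76 within LV-SNORA28, PLLP and ARL3 separate the groups, and the ARL2 groups overlap.

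The spread of ARL2BP between libraries was part of the reason for choosing it and is given as a description. The SD of its log2 values was 0.64 in LV-SNORA28, against a median of 0.10 over the genes tested, and 97.9% of these had a smaller SD. In LV-NC the SD was 0.42, above that of 94.1% of the genes. ARL3 was even, with an SD of 0.05 in LV-NC and 0.06 in LV-SNORA28.

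PLLP was higher in every LV-SNORA28 library than in any control, though it was the least abundant of the 4 genes. It measured 0.39, 1.06 and 0.39 FPKM in replicates 1, 2 and 3 of LV-NC. In LV-SNORA28 it was listed at 2.41, 1.85 and 2.22 FPKM. The highest LV-NC value, in replicate 2, stood apart from the other pair of control libraries, while the LV-SNORA28 libraries lay close together. Its log2 fold change of 0.99 (SE 0.18) gave an adjusted p of 0.0238 in limma over 12076 genes, those averaging 1 FPKM or more. In that fit 6.81% of the genes were called higher, 2.10% lower and 8.91% in all at an adjusted p below 0.05. Because of the added 1, the log2 fold change was 1.78 with a pseudocount of 0.1, and the ratio of mean FPKM was 3.52. PLLP passed the filter only through LV-SNORA28, since its LV-NC mean was 0.613 FPKM. Without a filter, where 0.934% of 32761 genes were called higher, its adjusted p in limma was 0.0765. With 1 library left out the adjusted p ran from 0.0175 to 0.0855, and it stayed below 0.05 only without LV-NC replicate 2. Blocking on replicate number gave 0.0705.

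The levels of ARL2BP and PLLP did not follow each other within the groups. LV-NC replicate 2 had the lowest ARL2BP and the highest PLLP of the controls, and LV-SNORA28 replicate 1 had the lowest ARL2BP and the highest PLLP of its group. The ratio of ARL2BP to PLLP was 9.33, 1.78 and 9.90 in LV-NC. It was 2.68, 7.75 and 7.10 in LV-SNORA28, so that the groups overlapped in this ratio although both genes were higher after SNORA28. Whether shared fragments take part in these values was not tested.

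Other transcripts at the ARL2BP locus were near 0. The antisense gene ENSG00000276663 measured 0.29, 0.21 and 0.27 FPKM across the LV-NC libraries, against 0.23, 0.09 and 0 FPKM across the LV-SNORA28 libraries. ENSG00000260038, a non-coding gene in an ARL2BP intron on the same strand, reached at most 0.31 FPKM. The genome also holds 9 processed copies of ARL2BP under the symbols ARL2BPP1 to ARL2BPP10, which align to its transcript at 71.0% to 86.2% identity in their longest alignments. Of these, 8 were listed at 0 in every library, and ARL2BPP4 reached 0.1 FPKM in LV-NC replicate 2. Fragments assigned to these copies were therefore few in every library.

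ARL2, the partner that guides tubulin folding, had no detectable difference between the groups. ARL2 (ENSG00000213465; chromosome 11, 65014160 to 65022184, plus strand) measured 11.62, 10.69 and 8.59 FPKM across the LV-NC libraries. In LV-SNORA28 it was listed at 9.43, 12.16 and 9.46 FPKM. The ranges overlapped almost entirely, with means of 10.3 ± 1.55 and 10.4 ± 1.57 FPKM (SD, n = 3 each). The log2 fold change was 0.01, with a 95% interval from -0.32 to 0.34 and an adjusted p of 0.980 in limma. The interval does not show that the level is equal in both groups.

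ARL2 shares its exons with the readthrough gene ARL2-SNX15 on the same strand, and fragments can be divided between them. ARL2-SNX15 measured 0, 0 and 0.13 FPKM across the LV-NC libraries, against 2.83, 0.36 and 0.15 FPKM across the LV-SNORA28 libraries. LV-SNORA28 replicate 1 alone was high, and in that library SNX15, the downstream gene, was at its lowest value of 1.29 FPKM. The sum of ARL2 and ARL2-SNX15 was 11.62, 10.69 and 8.72 FPKM in LV-NC and 12.26, 12.52 and 9.61 FPKM in LV-SNORA28. These sums overlapped between the groups too. MIR6879, a microRNA gene within ARL2, reached 0.09 FPKM in LV-NC replicate 1 and was listed at 0 elsewhere.

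ARL3, the ciliary partner, was slightly higher after SNORA28. ARL3 (ENSG00000138175; chromosome 10, 102673731 to 102714397, minus strand) measured 8.3, 7.7 and 7.96 FPKM across the LV-NC libraries. In LV-SNORA28 it was listed at 10.33, 9.43 and 10.02 FPKM. Both groups were tight and did not overlap. Its log2 fold change of 0.28 (SE 0.06) gave an adjusted p of 0.0471 in limma. The call was marginal, and the adjusted p ran from 0.0686 to 0.144 when 1 library was left out, whichever it was. It was 0.125 after quantile normalization, which lowered the log2 fold change to 0.19, and 0.0710 in the fit blocked on replicate number. Over all genes tested the log2 fold changes had a median of 0.09, and 66.7% of them lay above 0. Of the 4 genes, 3 had groups that did not overlap with LV-SNORA28 higher. These were ARL2BP, chosen for its rise, PLLP, which passed the filter only through LV-SNORA28, and ARL3. Of all genes tested, 27.0% had groups that did not overlap with LV-SNORA28 higher, and 8.16% with LV-SNORA28 lower.

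The balance between ARL2BP and its partners was described within each library, since FPKM values are scaled to length. Because ARL2BP was chosen for its rise, its higher ratios in LV-SNORA28 follow from that choice and are no separate result. Its values may also include PLLP fragments from the shared exons. The ratio of ARL2BP to ARL2 was 0.313, 0.177 and 0.449 in LV-NC and 0.684, 1.18 and 1.67 in LV-SNORA28. By FPKM, ARL2BP was thus below ARL2 in every control and exceeded ARL2 in LV-SNORA28 replicates 2 and 3. The ratio of ARL2BP to ARL3 was 0.439, 0.245 and 0.485 in LV-NC and 0.624, 1.52 and 1.57 in LV-SNORA28. The ratio of ARL2 to ARL3 ran from 1.08 to 1.40 in LV-NC and from 0.913 to 1.29 in LV-SNORA28, and these ranges overlapped. The order in LV-NC was ARL2, ARL3, ARL2BP and PLLP in all 3 libraries. In LV-SNORA28 ARL2BP was the third of the 4 genes in replicate 1 and the highest in replicates 2 and 3.

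**Figure D3:**
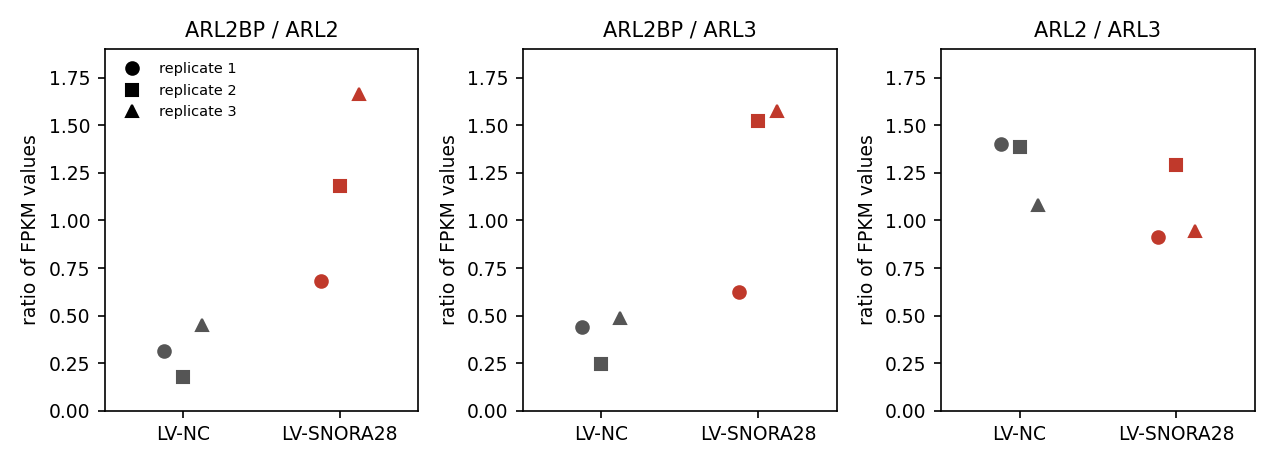
Ratios of FPKM values within each library (y axes from 0) for ARL2BP to ARL2, ARL2BP to ARL3 and ARL2 to ARL3, with the marker shape giving the replicate. Both ARL2BP ratios lie below 0.5 in the 3 LV-NC libraries and above 0.6 in the 3 LV-SNORA28 libraries. ARL2BP was chosen for its rise, so this separation is no separate result. The ARL2 to ARL3 ratios overlap.

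The regulators, carriers and cargo of ARL2 and ARL3 were mostly without a call. Of 15 genes in this list, 14 were tested, 2 were called higher, none lower and 12 did not pass in limma, where 6.81% of all genes were called higher and 2.10% lower. These calls included STAT3, and without it 1 of 13 tested genes was called. The median log2 fold change was 0.14, against 0.09 for all genes tested. UNC119B, a carrier of myristoylated proteins that ARL3 unloads, measured 9.67, 8.46 and 9.67 FPKM across the LV-NC libraries, against 12.95, 12.31 and 13.61 FPKM across the LV-SNORA28 libraries. It rose by a log2 fold change of 0.44 (SE 0.08, limma adjusted p 0.0221). Its adjusted p stayed below 0.05 in 1 of 6 fits with a library left out and reached 0.0835. Its paralogue UNC119 lay at -0.40 on the log2 scale (limma adjusted p 0.151) with overlapping groups, and passed at -0.59 (limma adjusted p 0.0344) without LV-SNORA28 replicate 3. PDE6D, the carrier of prenylated proteins, lay at 0.29 (limma adjusted p 0.0643), short of the threshold.

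STAT3 was the other gene of the list to rise. It measured 6.52, 6.06 and 6.05 FPKM across the LV-NC libraries, against 9.83, 8.97 and 9.95 FPKM across the LV-SNORA28 libraries. It rose by 0.55 on the log2 scale, and its adjusted p in limma stayed between 0.0230 and 0.0455 with 1 library left out. STAT3 is a gene the study follows and its rise was known when the list was made. RP2 and ELMOD2, which promote GTP hydrolysis by ARL3 and ARL2, had log2 fold changes of 0.10 and -0.05 (limma adjusted p 0.478 and 0.709). CFAP36, which has an ARL2BP-like domain, had 0.21 (limma adjusted p 0.217). RHEB, the most abundant gene of the list, had 0.15 (limma adjusted p 0.371).

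The list made for tubulin folding held tubulins and genes with symbols starting in TBC, not all of them folding cofactors. In this list, 1 of 18 tested genes was called higher in limma, against 6.81% of all genes. It was TBCD, the cofactor that ARL2 binds. TBCD measured 5.82, 5.48 and 6.14 FPKM across the LV-NC libraries, against 8.15, 7.79 and 8.51 FPKM across the LV-SNORA28 libraries. Its groups were tight and well apart, with a log2 fold change of 0.43 (SE 0.07, limma adjusted p 0.0188). With 1 library left out the adjusted p ran from 0.0434 to 0.0771 and stayed below 0.05 in 2 of 6 fits. The other cofactors TBCA, TBCB, TBCC and TBCE had log2 fold changes of -0.04, -0.03, 0.16 and 0.21 and did not pass. The tubulins TUBB and TUBA1B, the most abundant genes of the list, had 0.17 and 0.11 (limma adjusted p 0.330 and 0.576). TUBB3 and TUBB6 held the highest and lowest values of the list, 0.83 and -0.40 (limma adjusted p 0.343 and 0.640), and the median was 0.10.

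Of 6 genes for ADP/ATP carriers and mitochondrial fusion, 2 were called higher and none lower in limma, against 6.81% and 2.10% of all genes. The median log2 fold change was 0.30. SLC25A4, the carrier that ARL2BP binds, measured 5.87, 5.77 and 6.24 FPKM across the LV-NC libraries, against 8.01, 7.97 and 7.44 FPKM across the LV-SNORA28 libraries. It rose by a log2 fold change of 0.34 (SE 0.07, limma adjusted p 0.0297). OPA1, a GTPase that fuses inner mitochondrial membranes, measured 7.56, 6.17 and 6.94 FPKM across the LV-NC libraries, against 9.02, 10.2 and 11.27 FPKM across the LV-SNORA28 libraries. It rose by 0.50 (SE 0.10, limma adjusted p 0.0362). Neither call was kept in any of the 6 fits that left out a library, where the adjusted p ran from 0.0614 to 0.111 for SLC25A4 and from 0.0503 to 0.113 for OPA1. Blocking on replicate number gave 0.0747 and 0.0803. The abundant carriers SLC25A5 and SLC25A6 had log2 fold changes of 0.27 and -0.26 (limma adjusted p 0.0548 and 0.0502). In a fit limited to genes averaging 5 FPKM or more, 5 of the 6 passed in limma, SLC25A6 as the lower gene, against 14.6% of the 6241 genes in that fit. The fusion genes MFN1 and MFN2 had 0.32 and 0.13 (limma adjusted p 0.0515 and 0.429).

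**Figure D4:**
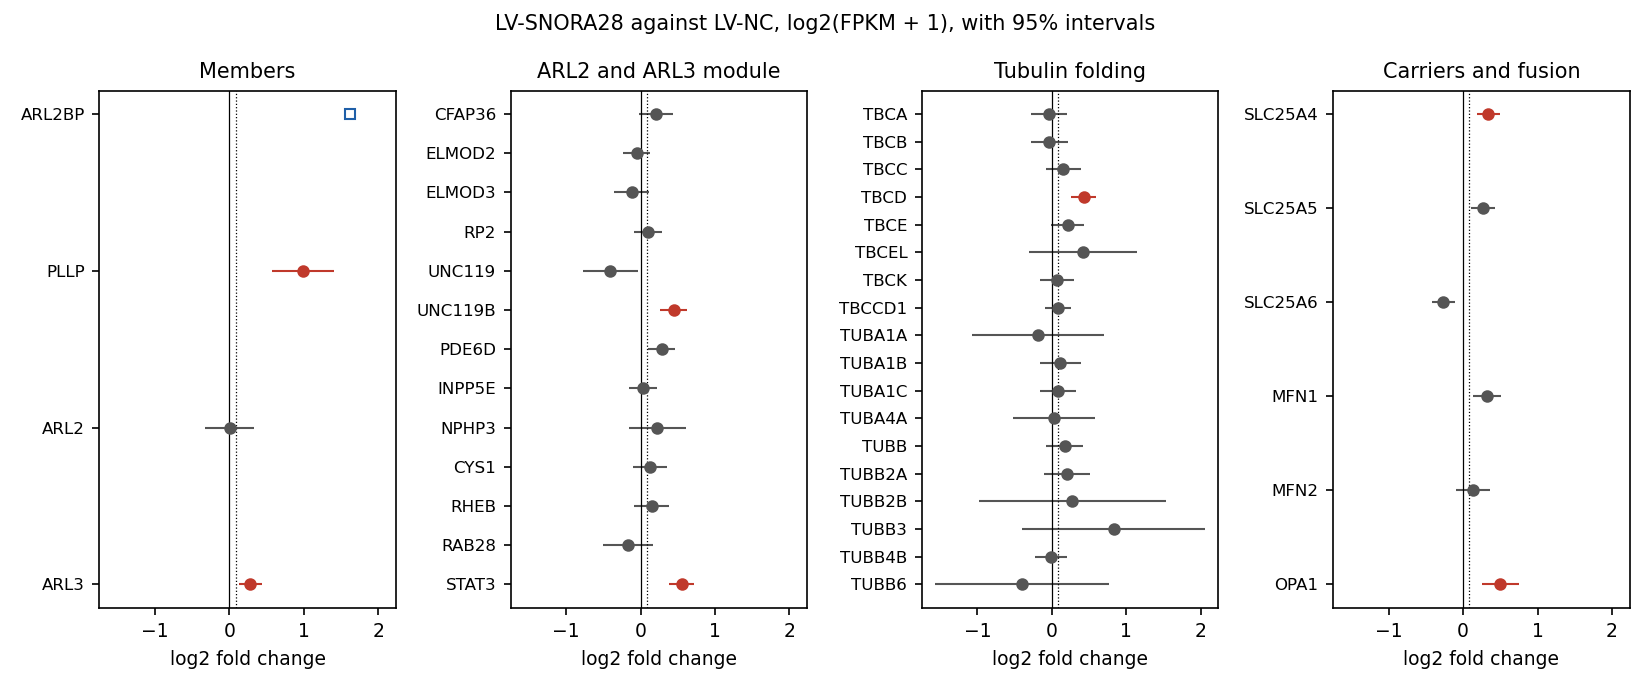
Log2 fold change of log2(FPKM + 1) values, LV-SNORA28 against LV-NC (x axis), for the 4 genes and the tested genes of 3 lists (1 gene of the first list is not shown), with 95% intervals of the limma fit. Red points have an adjusted p below 0.05 (PLLP, ARL3, UNC119B, STAT3, TBCD, SLC25A4 and OPA1), of which PLLP passed the 1 FPKM filter only through LV-SNORA28 and had 0.0765 without a filter in limma. The open square is ARL2BP, given without interval or test, and the dotted line is the median of all genes tested.

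No call was made among the chromosomal neighbours of ARL2BP and PLLP. Within 250 kb on either side, 22 genes other than ARL2BP and PLLP were annotated, of which 8 were tested and 6 were at 0 in every library. None of the 8 passed in limma, and 0 of them had an unadjusted p below 0.05, against 28.0% of all genes tested. Their log2 fold changes ran from -0.11 to 0.26, with a median of 0.15. RSPRY1, the nearest tested neighbour on the other side, measured 3.52, 3.61 and 4.06 FPKM across the LV-NC libraries, against 4.08, 4.11 and 5.09 FPKM across the LV-SNORA28 libraries. Its LV-SNORA28 values all lay above its LV-NC values, with a log2 fold change of 0.19 and a limma adjusted p of 0.256. POLR2C, a subunit of RNA polymerase II, and PSME3IP1, the most abundant tested neighbours, had 0.04 and 0.17 (limma adjusted p 0.723 and 0.620). The chemokine genes CX3CL1 and CCL17, beyond PLLP, were at 0 in every library.

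**Figure D5:**
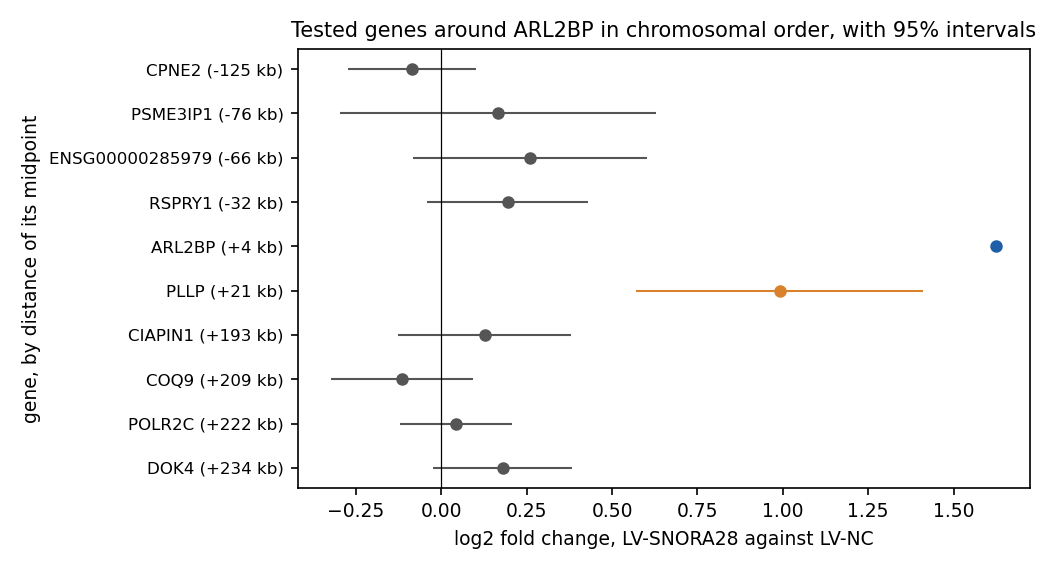
Log2 fold change, LV-SNORA28 against LV-NC (x axis), of the tested genes within 250 kb of ARL2BP in chromosomal order, with 95% intervals of the limma fit and the distance of each gene midpoint from the ARL2BP start. ARL2BP (without interval) and PLLP lie at 1.63 and 0.99, and the 8 other genes lie between -0.11 and 0.26.

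The genes most like ARL2BP across the 6 libraries were ranked by the Pearson correlation of log2(FPKM + 1), as a description without a test. They were ATE1, NUP42, ZNF430, TBC1D31 and LARP4B, with correlations from 0.992 to 0.996. These are the highest values of a search over all genes tested with only 6 libraries, so they are high by selection. The points share the group difference and the depth of each library. ZNF430 passed the 1 FPKM filter only through LV-SNORA28, with 0.76 to 0.92 FPKM in LV-NC and 1.15 to 1.49 FPKM in LV-SNORA28. ATE1, an arginyltransferase, measured 5.71, 4.91 and 5.8 FPKM across the LV-NC libraries, against 6.46, 7.48 and 7.7 FPKM across the LV-SNORA28 libraries. It had the same order of libraries as ARL2BP, with the lowest LV-NC value in replicate 2 and the lowest LV-SNORA28 value in replicate 1. Its group means differed by a ratio of only 1.32, against 3.89 for ARL2BP, and the ratios of the other 4 genes ran from 1.16 to 1.55.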

How the data were processed

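The authors deposited 1 table per library with FPKM values per Ensembl gene. The submitters' processing notes name cutadapt 1.9, HISAT2 2.2.1, StringTie 2.1.6 and hg38, without roles. The annotation, the strand setting and the mapped totals are not given in the sources used here, so only the spread between libraries shows how precise a low value is. FPKM is relative to all mapped fragments, so abundant transcripts shift the other values.

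Groups came from sample titles. Symbols came from GENCODE release 44. Values were transformed to log2(FPKM + 1), and 12076 genes averaging 1 FPKM or more were fitted in limma 3.58.1 (R 4.3.3, eBayes with trend, two-sided, Benjamini-Hochberg adjustment over all genes tested). Exact two-sided permutation of 3 against 3 libraries cannot go below p = 0.1 and was not used. The fit was tested on simulated data. Exons were read from hg38, and ARL2BP copies were aligned with blastn 2.17.0.

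The genes and lists were chosen with earlier results of these data known. Named were the 4 genes, genes that overlap them, ARL2BP copies, list genes with an adjusted p below 0.05, the 2 most abundant genes of each list and the 5 genes most like ARL2BP. Other regulators named were chosen after their values were seen. Replicate numbers did not pair the libraries, with correlations of deviations of -0.04, 0.09 and 0.01. Alternatives were another pseudocount, other filters, other scalings, no trend, a replicate block and each library left out. A few list genes that were counted are not reported here by name.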

Additional observations from a re-analysis of the deposited data

How the results depend on the processing

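The ARL2BP difference of 1.63 ranged from 1.39 to 1.99 over all alternatives, both ends with 1 library left out, so that it moved by less than the SD between its libraries. PLLP kept its direction but lost its call at 0.99 without a filter and with the replicate block. With 1 library left out PLLP ranged from 0.90 to 1.18 and kept its call only without LV-NC replicate 2. With a pseudocount of 0.1 it was 1.78. ARL3 lost its call without a filter, without the trend and with the replicate block (each 0.28), after quantile normalization (0.19), after scaling to the nuclear FPKM sum (0.26), and in the fits with 1 library left out (0.26 to 0.31). ARL2, never called, was -0.0816 after quantile normalization, -0.0178 after nuclear scaling, and -0.107 to 0.0915 with 1 library left out.

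The 1076 genes called were split 822 higher and 254 lower, and after quantile normalization 451 higher and 375 lower. Their number became 397 without a filter, 510 with the replicate block, and 278 to 629 with 1 library left out. The 2 calls among carriers and fusion genes became 5 among genes averaging 5 FPKM or more and 0 without a filter, after quantile normalization, with the replicate block and in every fit with 1 library left out (0 to 0). For the carriers and fusion genes, a pseudocount of 0.1 gave 3 calls, with SLC25A6 as the lower gene. Scaling to the nuclear FPKM sum gave 2 calls there, SLC25A4 higher and SLC25A6 lower, with OPA1 at a limma adjusted p of 0.0501. The 2 calls of the ARL2 and ARL3 list became 1 without a filter and 1 to 2 with 1 library left out. The 1 tubulin call ranged from 0 to 1 in those fits. ARF family calls went from 0 to 1 without a filter, to 1 (ARF1) among genes averaging 5 FPKM or more, to 2 after quantile normalization (ARF1 among them), and 0 to 1 with 1 library left out. The neighbour and MARVEL lists kept 0 calls under all alternatives. The cause was not tested. Depth is unknown, so levels near 1 FPKM such as PLLP are least precise. PLLP has no value among genes averaging 5 FPKM or more.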

Other observations

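The other ARF and ARL GTPases, relatives of ARL2 and ARL3 that act mainly in membrane traffic, were read in the same fit. Of 29 genes, 21 were tested and none passed in limma, while 5 had an unadjusted p below 0.05, or 3 higher and 2 lower, against 28.0% of all genes tested. Their median log2 fold change was 0.07. ARF1, the main coat-recruiting GTPase of the Golgi, measured 67.18, 80.27 and 112.15 FPKM across the LV-NC libraries, against 57.03, 44.54 and 39.98 FPKM across the LV-SNORA28 libraries. Every LV-SNORA28 value was below every LV-NC value, and its log2 fold change of -0.84 missed the threshold in limma (adjusted p 0.0557). It passed among genes averaging 5 FPKM or more and after quantile normalization (limma adjusted p 0.0426 and 0.0493). SAR1A had the highest log2 fold change, 0.67 (limma adjusted p 0.122), and passed without LV-SNORA28 replicate 2 (0.93, limma adjusted p 0.0391). ARF5, the other most abundant gene, had a log2 fold change of 0.08 (limma adjusted p 0.574).

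No call was made among the MARVEL family relatives of PLLP. Of 15 genes, 11 were tested, none passed in limma, and 3 had an unadjusted p below 0.05, against 28.0% of all genes tested. Their median log2 fold change was 0.06, and MAL, another proteolipid of myelin, was at 0 in every library. MALL and MAL2, the most abundant, had log2 fold changes of 0.13 and 0.04 (limma adjusted p 0.294 and 0.653).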
